A study of Homo sapiens with 12 samples.

Results

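The genes described here are 46 genes of DNA replication and the S phase of the cell cycle, taken by symbol from a list and found, all 46, among the 27788 symbols of the deposited count tables. RNA was measured in 2 human cancer cell lines, the colorectal carcinoma line HCT116 and the glioblastoma line U-87 MG. Each line had GSTO1 KO and wild-type (WT) cells, with 3 libraries per group and 12 altogether. The product of GSTO1 is a glutathione transferase of the omega class. Per the labels' protocols, the KO cells were made by stable expression of Cas9 from a lentivirus with blasticidin selection, followed by transfection of tracrRNA and a crRNA against exon 2 of GSTO1. Single colonies were then picked. The protocols also list a crRNA without a target as control. Whether the WT cells carry Cas9 or received that crRNA, and how many colonies the KO libraries stand for, the sources used here do not give. A difference between KO and WT cells may therefore be a difference between colonies. MCM5 and CDC45 lie on chromosome 22 and are given apart, which leaves 44 members for counts and medians.

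Before a cell can copy its DNA, the origin recognition complex with CDC6 and CDT1 loads rings of MCM2 to MCM7 onto origins in the G1 phase. At the start of S phase CDC45 and the GINS complex join each ring to form the active helicase, and DNA polymerases alpha, delta and epsilon follow, with the sliding clamp PCNA, the clamp loader RFC and the single-strand binding complex RPA. Transcription factors of the E2F family, held back by the retinoblastoma protein until cyclin-dependent kinases phosphorylate it, switch on many of these genes together, so their transcripts are known as a marker of cycling cells.

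Libraries held 17814142 to 28097179 counts. Whether the 3 libraries per group came from separate cultures is not in the labels. The p-values therefore measure no more than the spread of these libraries, which may be technical. Every pair of libraries of 1 group differed beyond sampling noise (chi-square per degree of freedom 1.48 to 9.31), with U-87 MG WT replicate 3 farthest from its group (8.21 and 9.31). GSTO1, the targeted gene, was at 17.1, 14.6 and 15.7 CPM (counts scaled to library size, with TMM, edgeR's correction for library composition) in HCT116 KO against 63.9, 64.7 and 61.4 CPM in WT libraries. The U-87 MG KO libraries held 25.02, 23.8 and 25.2 CPM of it, and the WT libraries 143, 142 and 117 CPM. No KO library came near a WT library. Of 10 epithelial markers 8 were above 1 FPKM (fragments scaled to transcript length and library size) in HCT116, where VIL1 and CDX1 were near 0. All 6 mesenchymal markers but only 2 of 7 glial markers were above 1 FPKM in U-87 MG, where GFAP, S100B, AQP4 and SOX2 were near 0 and OLIG2 at 0.286 FPKM in WT cells. The 2 glial markers, SOX9 and NES, were above 1 FPKM in HCT116 too and do not separate the lines. HCT116 had 3 of 6 mesenchymal markers above 1 FPKM. Their sum over the 6 was 5.33 to 5.88 FPKM in WT HCT116 libraries and 7874 to 8596 FPKM in WT U-87 MG libraries. In U-87 MG 1 of 10 epithelial markers passed 1 FPKM. None of 5 leukocyte markers passed 1 FPKM in either line. RNR2, a ribosomal RNA gene, took 1.36 to 1.54% of all counts in HCT116 KO libraries and 0.981 to 1.06% in WT libraries. The U-87 MG shares were 0.419 to 0.435% for KO and 0.254 to 0.322% for WT. Its part in the results below was not tested.

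Replication genes were slightly but almost uniformly lower in GSTO1 KO cells of both lines. In HCT116, 43 of the 44 members had a log2 fold change (KO over WT) below 0, against 49.2% of all 14068 genes tested, and their median was -0.36, against 0.01 for all genes. In U-87 MG, 42 of 44 were below 0, against 49.3% of 13741 genes, with a median of -0.37 against 0.01. These medians stand for a fall of 22.3% and 22.8%, and the medians of the single KO libraries had an SD of 0.02 and 0.01 on the log2 scale (n = 3). That SD leaves out the spread of the WT libraries. Their medians, against the WT mean, ran from -0.0028 to 0.0028 in HCT116 and from -0.032 to 0.023 in U-87 MG. In bulk RNA, fewer cells in S phase and less RNA per cell cannot be told apart.

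Each of the 46 members passed the low-count filter in both lines. At an adjusted p under 0.05 alone (edgeR's quasi-likelihood test, Benjamini-Hochberg over all genes), 40 of 44 members fell and 1 rose in HCT116, where 28.1% of all genes fell and 29.2% rose. In U-87 MG 37 fell and 1 rose, where 30.2% of all genes fell and 29.0% rose. Separation of the libraries gave the same picture: 41 members in HCT116 and 38 in U-87 MG had all KO libraries below all WT libraries, against 30.4% and 32.2% of all genes. In each line 1 member had all KO libraries above all WT libraries, against 31.2% and 31.8% of all genes. There were 33 members that fell in both lines, against 14.3% of the 12239 genes tested in both. Depending on the scaling, tool or library left out, 36 to 42 members fell in HCT116 and 36 to 40 in U-87 MG, where the 40 came without WT replicate 3.

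Few of these falls were large. A gene is named here as called when it also changed more than 1.5-fold (0.58 on the log2 scale) and had a mean FPKM above 0.5. By that rule 6 members were called lower in HCT116, DNMT1, POLA2, CDC25A, RRM2, RFC5 and GINS1, against 4.07% of all genes called lower and 11.9% called in either direction. In U-87 MG 3 were called lower, POLE2, UHRF1 and RFC2, against 8.15% of all genes called lower and 16.2% called in either direction. The 3 of 44 are 6.82%, near that background, whereas the 6 of 44 in HCT116 are 13.6%. MCM5 and CDC45 were called lower in U-87 MG as well. No member was called higher in either line, against 7.82% and 8.06% of all genes. None of the 46 was called lower in both lines, against 0.645% of all genes tested in both, though with limma on log2(FPKM + 0.1) POLE2 passed in HCT116 too (-0.60). RFC5 (-0.61) and GINS1 (-0.60) lay just inside the fold limit in HCT116 and CCNE2 (-0.58) just outside it.

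**Figure D1:**
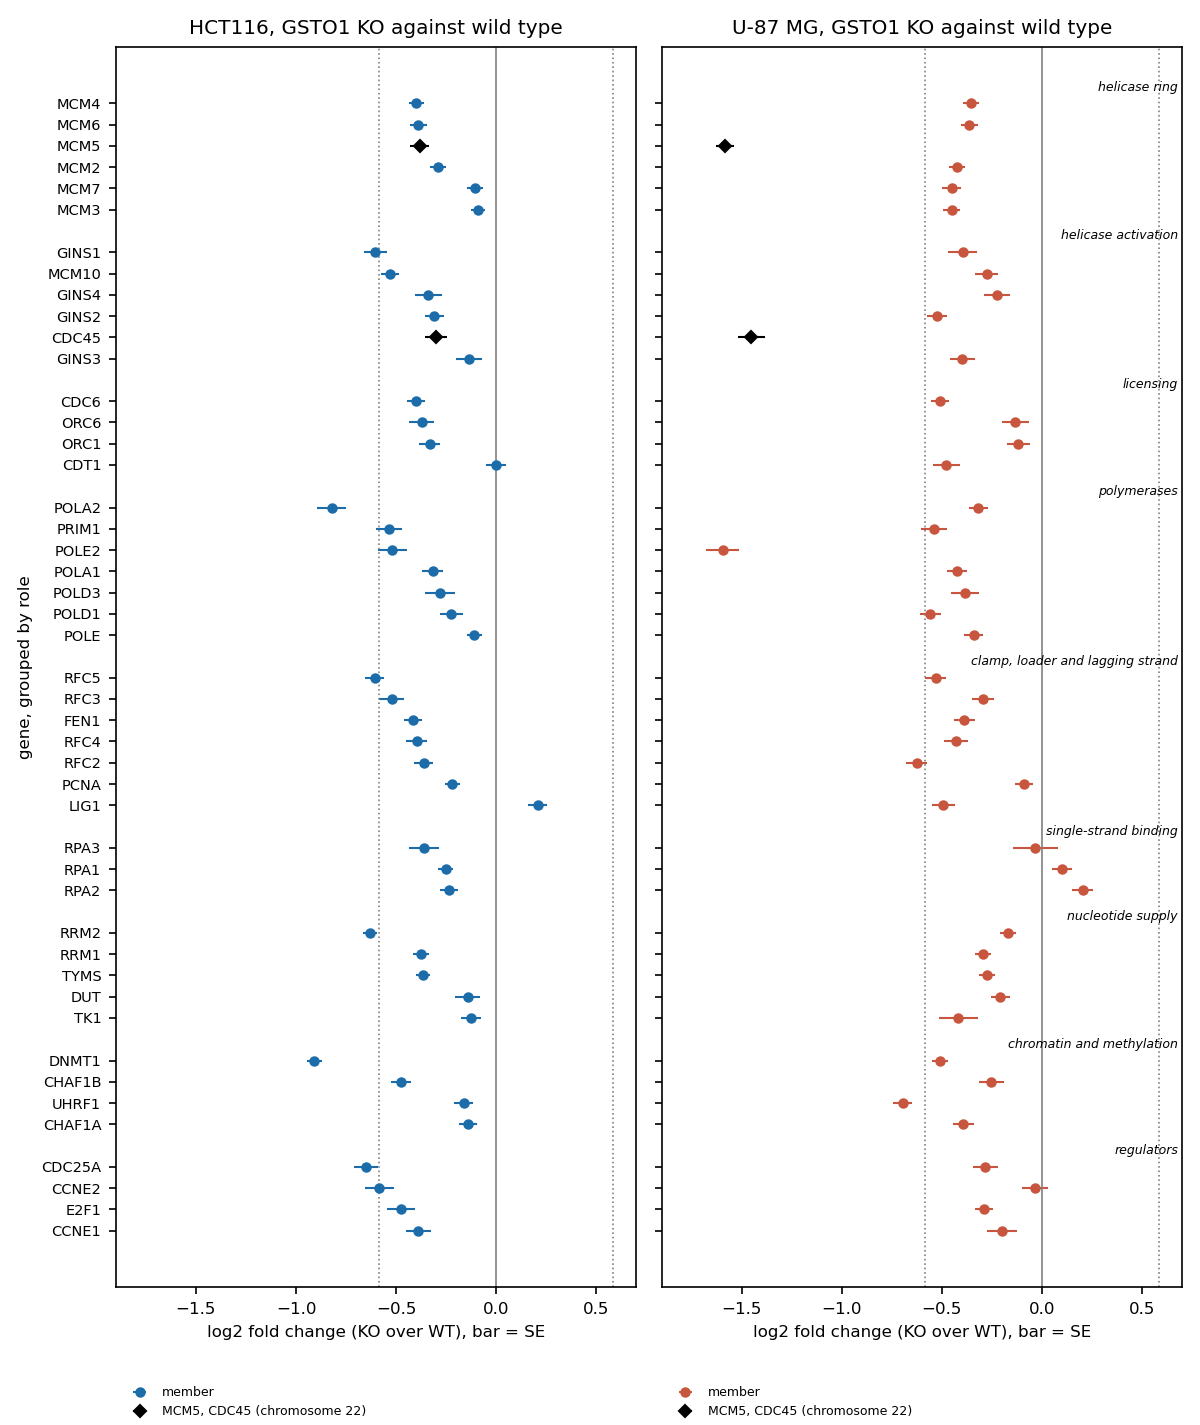
Log2 fold change (KO over WT, x axis) of each of the 46 members, grouped by role, in HCT116 (left) and U-87 MG (right); bars are standard errors, dotted lines mark 1.5-fold and black diamonds are MCM5 and CDC45. Nearly all points lie to the left of 0, between 0 and the dotted line, with LIG1 above 0 in HCT116, RPA1 and RPA2 above 0 in U-87 MG, and MCM5, CDC45 and POLE2 far to the left in U-87 MG.

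**Figure D2:**
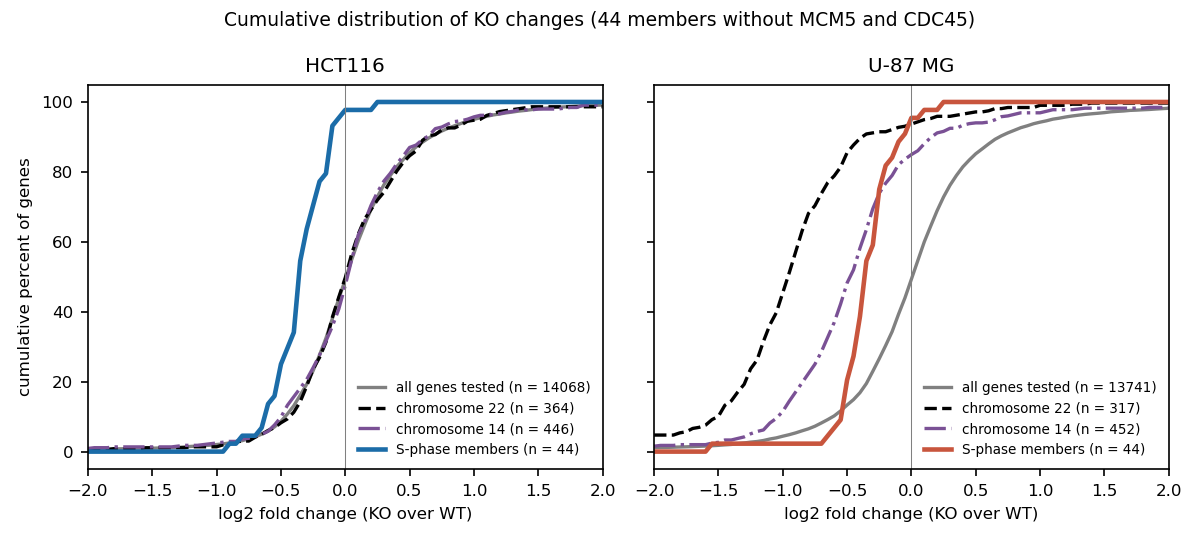
Cumulative percent of genes (y axis) by log2 fold change (x axis) for all genes tested, genes of chromosomes 22 and 14 and the 44 members. The members' curve is steep and shifted left of all genes in both lines (medians -0.36 and -0.37), and in U-87 MG the curves of chromosomes 22 and 14 are shifted as well.

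Many promoters of these genes, but not all, hold the letters of E2F sites or CCAAT. RefSeq promoters (GRCh38.p14, 250 bases before to 50 after the start) were found for 39 of the 46 members, the others being MCM4, MCM5, GINS4, POLD3, RPA2, RPA3 and CCNE2. They were searched on both strands for TTTCGCGC, TTTGGCGC, TTTCCCGC and TTTGCCGC, the words known as E2F sites, in which a word and the reverse of another can overlap. A word was present in 21 of 39 members (53.8%), in 5.60% of 9770 promoters of genes tested in both lines and in 3.33% of all 27305 promoters. CCAAT, the letters bound by the factor NF-Y, was present in 22 of 39 members (56.4%), 37.0% of the promoters of genes tested in both lines and 35.7% of all promoters. Many members are textbook targets of E2F, so these shares describe the list. A match is not evidence of binding. The stretches below are 60 bases upstream of the start of helicase ring members, called members and LIG1 that have an E2F word wholly upstream there. MCM2, GINS1, POLE2 and DNMT1 have a word only across or after the start and are not shown. They read 5′ to 3′ on the gene's strand with the E2F words in capitals.
MCM3: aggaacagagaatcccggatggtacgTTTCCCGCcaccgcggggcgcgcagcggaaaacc
MCM6: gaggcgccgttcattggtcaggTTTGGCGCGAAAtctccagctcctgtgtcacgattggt
MCM7: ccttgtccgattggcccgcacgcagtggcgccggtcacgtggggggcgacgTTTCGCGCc
POLA2: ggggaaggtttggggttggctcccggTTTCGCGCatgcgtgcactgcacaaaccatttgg
CDC25A: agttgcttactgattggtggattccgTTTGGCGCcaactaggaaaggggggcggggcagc
UHRF1: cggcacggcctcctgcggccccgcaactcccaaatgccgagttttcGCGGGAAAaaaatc
LIG1: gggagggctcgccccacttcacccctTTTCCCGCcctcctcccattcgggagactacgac
On GRCh38.p14 these lie at chr6:52284883-52284942 (minus strand), chr2:135876496-135876555 (minus), chr7:100101398-100101457 (minus), chr11:65261883-65261942 (plus), chr3:48188428-48188487 (minus), chr19:4909441-4909500 (plus) and chr19:48170425-48170484 (minus). In MCM6 the capitals are 2 overlapping words on opposite strands, and in UHRF1 the word is on the other strand. RRM2, RFC5 and RFC2, all called in 1 line, held no E2F word in the window. A single start per gene was searched, so other starts of a gene were not covered. The median log2 fold changes of members with and without a word were -0.32 (n = 21) and -0.37 (n = 17, without CDC45) in HCT116, and -0.42 and -0.29 in U-87 MG.

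Transcript levels of the members were correlated between the lines, though some members differed widely in rank. Levels per length are compared as deposited FPKM. In WT HCT116 the highest were PCNA, the sliding clamp, at 213 ± 1.07 FPKM, TYMS, which makes thymidylate, at 199 ± 3.51 FPKM, and TK1, the thymidine kinase of S phase, at 189 ± 9.99 FPKM (SD, n = 3). In WT U-87 MG they were TK1 at 144 ± 17.9 FPKM, TYMS at 115 ± 0.967 FPKM and MCM5 at 108 ± 3.03 FPKM. The lowest were POLD3, a subunit of polymerase delta, in HCT116 (8.45 ± 0.386 FPKM) and GINS1 in U-87 MG (7.25 ± 0.232 FPKM). Across the 44 members the log2 FPKM of the WT groups correlated between the lines (Pearson 0.85, Spearman 0.84), as a description over genes, which share their library and are not replicates.

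In 34 of the 46 members all WT HCT116 libraries were above all WT U-87 MG libraries in FPKM, in 10 they were below, and 2 overlapped. Over the 11816 genes tested in both lines that have FPKM values, 45.7% were above and 40.3% below. HCT116 was read single-end and U-87 MG paired-end, so line and read layout cannot be told apart and no test was made. The members that stood highest in U-87 MG relative to HCT116 were E2F1, DUT and RPA3. E2F1, an activating E2F factor, was at 41.8 ± 1.48 against 15.9 ± 1.25 FPKM. DUT, which removes dUTP, was at 55.9 ± 2.26 against 21.8 ± 1.59 FPKM, and RPA3 at 26.5 ± 4.55 against 10.6 ± 0.425 FPKM. Highest in HCT116 relative to U-87 MG were CDT1, the licensing factor, at 44.3 ± 1.97 against 17.6 ± 1.49 FPKM, CCNE1, cyclin E1, at 24.2 ± 0.402 against 9.78 ± 0.162 FPKM, and LIG1 at 29.4 ± 0.639 against 12.7 ± 0.376 FPKM.

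**Figure D3:**
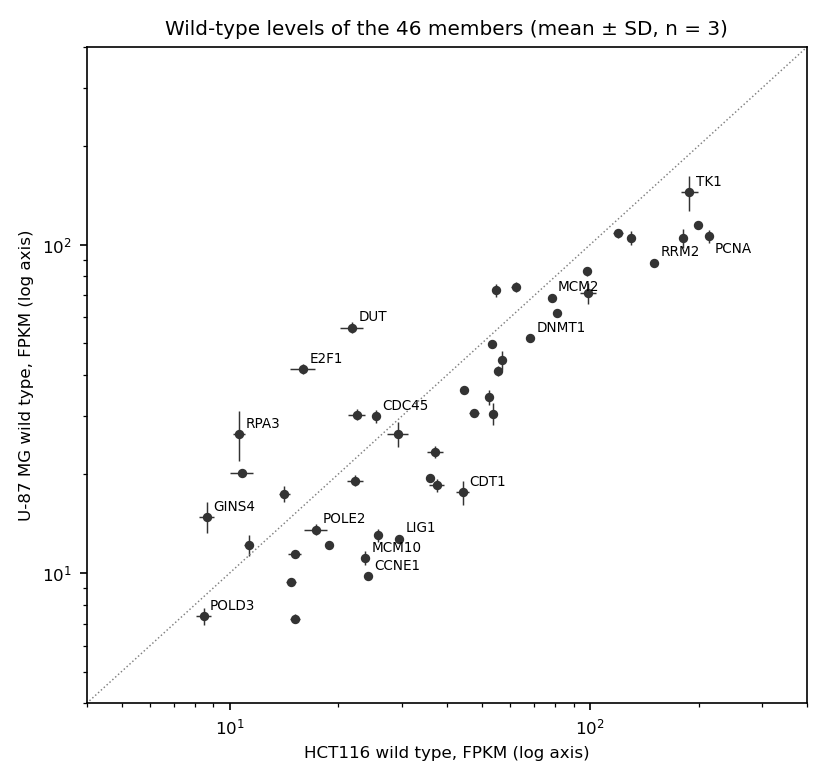
Mean FPKM of the 46 members in WT HCT116 (x axis) and WT U-87 MG (y axis), both on log axes; bars are SD over 3 libraries and the dotted line marks equal values. The points follow the line over more than 1 decade, with E2F1, DUT, RPA3 and GINS4 above it and CDT1, CCNE1, LIG1 and MCM10 below it.

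The helicase ring, MCM2 to MCM7, forms 1 complex with 1 copy of each subunit, and its members without MCM5 fell at the adjusted p in both lines without reaching 1.5-fold. In HCT116, MCM4 was at 417, 436 and 411 CPM in KO and 566, 553 and 549.9 CPM in WT libraries (log2 fold change -0.40, SE 0.04, edgeR adjusted p = 1.78e-08). MCM6 was at 197, 189 and 177 CPM in KO and 249.8, 246 and 240.0 CPM in WT libraries (-0.39, SE 0.04). MCM2 was at 256, 252 and 265 CPM in KO and 312, 313 and 322 CPM in WT libraries (-0.29, SE 0.04). In these 3 genes KO and WT libraries were well apart. MCM3 was at 464, 455 and 453 CPM in KO and 492, 487 and 481 CPM in WT libraries (-0.09, SE 0.04, edgeR adjusted p = 0.0331). MCM7 was at 568, 575 and 618 CPM in KO and 634, 619 and 642 CPM in WT libraries (-0.11, SE 0.04, edgeR adjusted p = 0.0247). These 2 small falls depended on the scaling: with library totals and no TMM the adjusted p was 0.0798 for MCM3 and 0.0548 for MCM7 (edgeR), and it was above 0.05 for MCM3 without KO replicate 2, WT replicate 1 or WT replicate 2, and for MCM7 without KO replicate 1, KO replicate 2, WT replicate 1 or WT replicate 3. The groups of MCM3 and MCM7 did not overlap, but the third KO library of MCM7 came within 2 CPM of the lowest WT library. The WT library of its own number was at 642 CPM.

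In U-87 MG the same 5 subunits lay closer together, between -0.45 and -0.35. MCM7 was at 249, 269 and 264 CPM in KO and 359.8, 379 and 328 CPM in WT libraries (-0.45, SE 0.05, edgeR adjusted p = 8.81e-08). MCM3 was at 281, 288 and 274 CPM in KO and 395, 396 and 360.1 CPM in WT libraries (-0.45, SE 0.04). MCM2 was at 194, 203 and 203 CPM in KO and 274, 272 and 258 CPM in WT libraries (-0.42, SE 0.04). For these 3 subunits, WT replicate 3 was the lowest WT library but still above every KO library. MCM6 was at 247, 247 and 242 CPM in KO and 332, 316 and 299 CPM in WT libraries (-0.36, SE 0.04), and MCM4 at 353, 351 and 367 against 459, 472 and 437 CPM (-0.35, SE 0.04). MCM3 and MCM7 fell more in U-87 MG than in HCT116 at the adjusted p (difference HCT116 minus U-87 MG 0.37, SE 0.06, adjusted p = 3.79e-06, and 0.35, SE 0.07, adjusted p = 5.80e-05, edgeR interaction). MCM7 has the antisense gene AP4M1 over 7.90% of its exon bases, and the strand setting of the counting is not given.

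**Figure D4:**
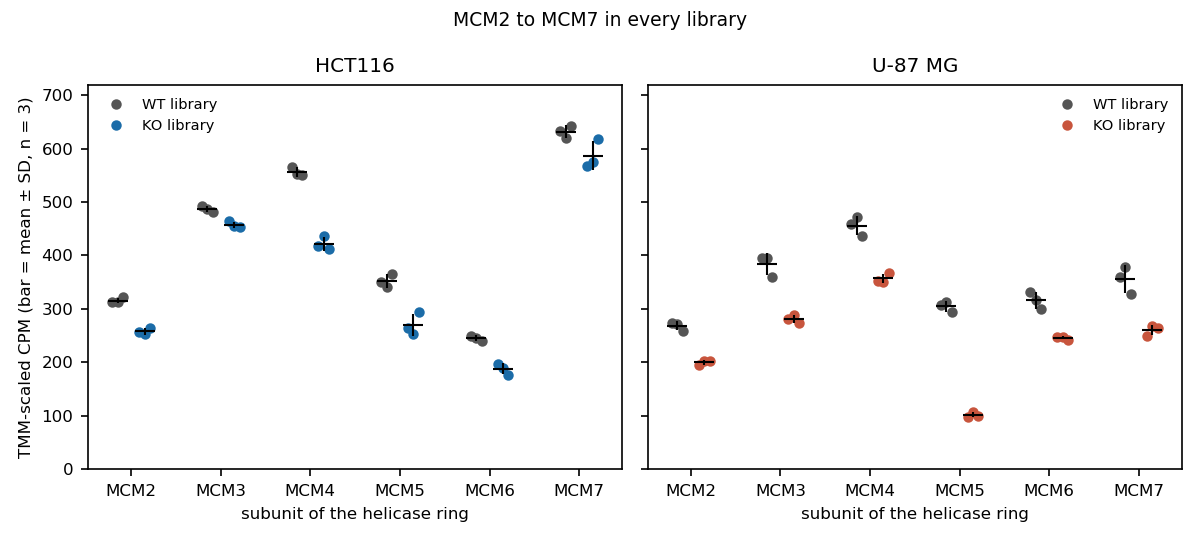
TMM-scaled CPM (y axis) of the 6 subunits of the helicase ring in every library of HCT116 (left) and U-87 MG (right); grey points are WT and coloured points KO libraries, and bars are mean ± SD (n = 3). In U-87 MG the 3 KO libraries of MCM5 lie at 97.7 to 107 CPM against 294 to 313 CPM in WT, a wider gap than in any other subunit.

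MCM5 and CDC45, apart from the rest, fell by far more in U-87 MG than in HCT116. MCM5 (chr22:35400140-35455031) was at 97.7, 107 and 100.2 CPM in U-87 MG KO and 307, 313 and 294 CPM in WT libraries, a fall of 66.7% (log2 fold change -1.58, SE 0.05, edgeR adjusted p = 7.40e-18). CDC45 (chr22:19479466-19520612) was at 22.3, 22.1 and 25.6 CPM in KO and 63.9, 67.2 and 60.3 CPM in WT libraries, a fall of 63.4% (-1.45, SE 0.07, edgeR adjusted p = 4.67e-14). No KO library came near a WT library in either gene. HCT116 values were closer: MCM5 was at 263, 253 and 293 CPM in KO and 351, 340.3 and 365 CPM in WT libraries (-0.38, SE 0.05), and CDC45 at 48.05, 45.4 and 47.9 against 57.5, 58.4 and 58.1 CPM (-0.30, SE 0.06). There both stood among the other members. The difference between the lines (HCT116 minus U-87 MG) was 1.21 for MCM5 (SE 0.07, edgeR adjusted p = 3.94e-15) and 1.16 for CDC45 (SE 0.09, edgeR adjusted p = 2.24e-12).

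Chromosome 22 as a whole was lower in U-87 MG KO cells. The 317 tested genes of the chromosome had a median log2 fold change of -0.97, 93.7% of them were below 0 and 225 were called lower, against a median of 0.01 over genes of other chromosomes. In HCT116 the 364 tested genes of chromosome 22 had a median of 0.00, with 13 called lower and 26 higher. MCM5 lay 0.62 below the chromosome's median in U-87 MG, with 25 of the 317 genes lower still, and CDC45 lay 0.48 below it, with 41 lower. The part of the chromosome-wide shift in the falls of MCM5 and CDC45 was not tested. Within the ring, MCM5 had the highest mean in WT U-87 MG (108 ± 3.03 FPKM, 19.9% of the summed FPKM of the 6). MCM3 (105 ± 5.42 FPKM) and MCM7 (105 ± 7.13 FPKM) were close to it there. In WT replicate 2 MCM7 was above MCM5 (111.1 against 110.7 FPKM). In U-87 MG KO cells MCM5 was the lowest subunit (36.8 ± 1.91 FPKM, 10.04%). In HCT116 its share was 18.1% in WT and 16.3% in KO cells, and it was the third highest in both.

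The other partners of the active helicase are MCM10, which helps to start it, and the GINS subunits. All 5 had negative log2 fold changes in both lines, from -0.60 to -0.14 in HCT116 (GINS3, adjusted p = 0.0787, edgeR, and 0.0228 with the replicate number as a block) and from -0.52 to -0.22 in U-87 MG. GINS1 was called in HCT116, at 41.1, 38.9 and 38.9 CPM in KO and 60.1, 62.1 and 58.3 CPM in WT libraries (-0.60, SE 0.06, edgeR adjusted p = 3.04e-08). Without HCT116 WT replicate 2 it slipped under the fold limit (-0.58). Its U-87 MG libraries were at 21.8, 19.6 and 21.1 CPM in KO against 27.1, 28.6 and 26.4 CPM in WT (-0.40, SE 0.07), with no overlap. The fall of GINS4 in U-87 MG (-0.22) did not pass with limma on log2(FPKM + 1) (-0.17, adjusted p = 0.0760). MCM10 fell more in HCT116 (-0.53, SE 0.05) than in U-87 MG (-0.28, SE 0.06, adjusted p of the difference 0.00770, edgeR), whereas GINS2 fell more in U-87 MG (-0.52 against -0.31, adjusted p of the difference 0.00844, edgeR). Tested genes within 5 Mb of GINS2 had a median of -0.24 in U-87 MG (n = 77) and -0.01 in HCT116 (n = 86). Those within 5 Mb of MCM10 had a median of -0.03 in U-87 MG (n = 33) and -0.20 in HCT116 (n = 37). The part of these regions in the differences was not tested.

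Among the licensing factors, CDC6 fell in both lines (-0.40, SE 0.04, in HCT116 and -0.51, SE 0.04, in U-87 MG). ORC1 and ORC6, subunits of the origin recognition complex, fell in HCT116 (-0.33 and -0.37), while in U-87 MG they were at -0.12 and -0.13 with adjusted p = 0.0848 and 0.101 (edgeR). Without U-87 MG WT replicate 3 ORC6 fell there (-0.20, adjusted p = 0.00288, edgeR). Around ORC6, the 20 tested genes within 5 Mb had a median of -0.21 in U-87 MG, with 13 at or below the value of ORC6. In HCT116 the 20 tested there had a median of 0.04. The part of that region in the values of ORC6 was not tested. CDT1 fell in U-87 MG (-0.48, SE 0.07) and was at 0.00 (SE 0.05) in HCT116, with 139 ± 6.53 CPM in WT and 138 ± 8.12 CPM in KO libraries. The difference between the lines was 0.48 for CDT1 (SE 0.09, edgeR adjusted p = 2.51e-05). Tested genes within 5 Mb of CDT1 had a median of -0.23 in U-87 MG (n = 66) and 0.02 in HCT116 (n = 73). The part of this region in the difference was not tested. ORC6 has 8.96% of its 50-base stretches in transcripts of other genes.

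All 7 polymerase genes fell in both lines at the adjusted p, except that POLE in HCT116 lost it with library totals and no TMM (adjusted p = 0.0545, edgeR) and without KO replicate 1, WT replicate 1 or WT replicate 2. POLA2, the accessory subunit of polymerase alpha with primase (chr11:65261962-65305985), was called in HCT116, at 24.7, 28.5 and 27.3 CPM in KO and 43.8, 47.7 and 51.04 CPM in WT libraries (-0.82, SE 0.07, edgeR adjusted p = 1.01e-08). U-87 MG KO libraries were at 64.9, 68.5 and 66.99 CPM against 83.2, 81.8 and 84.7 CPM in WT (-0.32, SE 0.05). KO and WT libraries were apart in both lines, and the fall was deeper in HCT116 (difference -0.49, SE 0.09, edgeR adjusted p = 2.63e-05). Of the 50-base stretches of POLA2, 16.8% also occur in transcripts of other genes, with 16.0% in an unnamed gene, so its counts carry that limit. Its partners POLA1, the catalytic subunit, and PRIM1, the small primase subunit, were at -0.32 and -0.54 in HCT116 and -0.42 and -0.54 in U-87 MG. PRIM1 passed the fold limit without HCT116 KO replicate 1 (-0.59). Transcripts of other genes share 12.2% of the 50-base stretches of PRIM1, and NACA overlaps 4.20% of its exon bases on the same strand.

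POLE2, the second subunit of polymerase epsilon (chr14:49643555-49688214), had the lowest log2 fold change of all members in U-87 MG. Its level was 9.64, 10.2 and 8.86 CPM in KO and 27.5, 29.4 and 29.8 CPM in WT libraries, a fall of 66.9% (-1.60, SE 0.08, edgeR adjusted p = 2.69e-13). HCT116 KO libraries were at 28.1, 26.7 and 24.6 CPM against 40.7, 37.6 and 35.1 CPM in WT (-0.52, SE 0.07), again without overlap. The difference between the lines was 1.09 (SE 0.11, edgeR adjusted p = 1.53e-09). POLE, the catalytic subunit of the same enzyme on chromosome 12, was at -0.34 (SE 0.05) in U-87 MG and -0.11 (SE 0.04) in HCT116. The tested genes within 5 Mb of POLE had medians of -0.23 in U-87 MG (n = 23) and -0.14 in HCT116 (n = 22). Their part in the values of POLE was not tested. Chromosome 14 was also lower in U-87 MG KO cells, with a median of -0.47 over 452 tested genes, of which 34.7% were called lower. The 52 tested genes within 5 Mb of POLE2 had a median of -0.72, all of them were below 0, and 3 were at or below the value of POLE2. In HCT116 the 48 tested neighbours had a median of -0.01. The part of the chromosome in the fall of POLE2 was not tested. For the 3 U-87 MG members called beside MCM5 and CDC45, only POLE2 lay in such a region: the neighbours of UHRF1 and RFC2 had medians of 0.02 and 0.08.

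The catalytic subunit of polymerase delta, POLD1, fell more in U-87 MG (-0.56, SE 0.05) than in HCT116 (-0.22, SE 0.06, adjusted p of the difference 8.45e-04, edgeR). Without U-87 MG WT replicate 3 POLD1 passed the fold limit as well (-0.59), and 4 members in place of 3 were called lower there. Transcripts of other genes share 6.92% of the 50-base stretches of POLD1. POLD3 was at -0.28 and -0.38 in HCT116 and U-87 MG.

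Around the sliding clamp, the loader subunits RFC2 to RFC5 fell in both lines, and PCNA itself fell in HCT116. PCNA was at 261, 255 and 254 CPM in HCT116 KO and 298, 298 and 301 CPM in WT libraries (-0.22, SE 0.04, edgeR adjusted p = 4.81e-05). Its U-87 MG libraries held 135, 129.9 and 138 CPM in KO and 146, 148 and 135 CPM in WT (-0.09, SE 0.05, edgeR adjusted p = 0.0957), and the groups overlapped. Without U-87 MG WT replicate 3 it fell there (-0.13, adjusted p = 0.00263, edgeR). RFC5 was called in HCT116, at 76.4, 80.9 and 75.3 CPM in KO and 121, 117 and 115 CPM in WT libraries (-0.61, SE 0.05, edgeR adjusted p = 2.35e-09). RFC5 came close to the limit in U-87 MG, at 52.7, 52.7 and 48.9 CPM in KO and 75.2, 74.9 and 72.8 CPM in WT (-0.53, SE 0.05). RFC5 has the antisense gene WSB2 over 5.72% of its exon bases. RFC2 was called in U-87 MG, at 59.2, 52.8 and 59.3 CPM in KO and 87.6, 90.9 and 86.1 CPM in WT libraries (-0.63, SE 0.05, edgeR adjusted p = 1.46e-09). The second KO library was the lowest, and without it the value was -0.57, under the limit, as it was with library totals and no TMM (-0.58). HCT116 libraries held 79.9, 76.7 and 77.1 CPM of RFC2 in KO and 99.1, 97.9 and 103 CPM in WT (-0.36, SE 0.05).

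LIG1, the ligase that seals Okazaki fragments (chr19:48115445-48170344), was the 1 member that rose in HCT116. It was at 141, 132 and 146 CPM in KO and 123, 123 and 118 CPM in WT libraries (0.21, SE 0.05, edgeR adjusted p = 0.00101). It fell in U-87 MG, from 49.9, 52.1 and 50.7 CPM in WT to 35.6, 36.5 and 36.5 CPM in KO libraries (-0.49, SE 0.06, edgeR adjusted p = 1.71e-07). The libraries did not overlap in either line, and the difference between the lines was 0.71 (SE 0.07, edgeR adjusted p = 1.71e-09), past 1.5-fold. FEN1, the nuclease that trims the same fragments, fell in both lines (-0.41, SE 0.04, and -0.39, SE 0.05), and the difference of -0.02 (SE 0.07) did not pass the test (adjusted p = 0.907, edgeR).

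The 3 subunits of RPA, which coats single-stranded DNA, fell in HCT116 (RPA1 -0.25, RPA2 -0.24, RPA3 -0.36) and none of them fell in U-87 MG. There RPA2 rose from 85.3 ± 5.53 to 98.3 ± 2.11 CPM (0.20, SE 0.05, edgeR adjusted p = 0.00168), RPA1 was at 0.10 (adjusted p = 0.0996, edgeR) and RPA3 at -0.03 (adjusted p = 0.830, edgeR). Without WT replicate 3 RPA3 fell (-0.16, adjusted p = 0.00727, edgeR), and with library totals and no TMM RPA1 rose (0.14, adjusted p = 0.0193, edgeR), as it did without WT replicate 1. The difference between the lines passed the adjusted p for each, at -0.34 for RPA1, -0.43 for RPA2 and -0.32 for RPA3 (edgeR adjusted p = 9.02e-05, 7.16e-06 and 0.0489).

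Among the enzymes of nucleotide supply, RRM2, the regulatory subunit of ribonucleotide reductase (chr2:10122568-10211010), was called in HCT116. It was at 363, 375 and 354 CPM in KO and 557, 562 and 571 CPM in WT libraries, a fall of 35.4% (-0.63, SE 0.04, edgeR adjusted p = 2.24e-11). The U-87 MG libraries held 283, 282 and 285 CPM in KO and 328, 315 and 313 CPM in WT, a fall of 11.1% (-0.17, SE 0.04). The groups were apart in both lines, and the falls differed (difference -0.45, SE 0.05, edgeR adjusted p = 3.16e-08). Its partner RRM1, the catalytic subunit, was at -0.37 in HCT116 and -0.29 in U-87 MG (adjusted p of the difference 0.352, edgeR).

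TYMS was at 269, 266 and 272 CPM in HCT116 KO against 350.1, 349 and 341 CPM in WT (-0.37, SE 0.04), and at 159.8, 155 and 153 against 189, 191 and 186 CPM in U-87 MG (-0.27, SE 0.04). Antisense genes, ENOSF1 and TYMSOS, cover 47.9% of its exon bases, so its counts may include theirs. TK1 was at 286, 284 and 323 CPM in HCT116 KO against 319, 312 and 345 CPM in WT (-0.13, SE 0.05, edgeR adjusted p = 0.0356), where the third KO library exceeded 2 of the WT libraries. Each HCT116 KO library was below the WT library of the same number, and the fall passed with the replicate number as a block. That fall did not pass without TMM (adjusted p = 0.0645, edgeR) or without KO replicate 1, KO replicate 2 or WT replicate 3. The U-87 MG KO libraries held 168, 185 and 186 CPM and the WT libraries 249.9, 264 and 206 CPM (-0.42, SE 0.10), with WT replicate 3 nearest to the KO libraries. DUT was at -0.14 (adjusted p = 0.0633, edgeR, and 0.00726 with the replicate number as a block) in HCT116 and fell in U-87 MG (-0.21, SE 0.05).

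DNMT1, the methyltransferase that copies DNA methylation onto new strands (chr19:10133346-10194953), had the deepest fall of all members in HCT116. It was at 232, 234 and 248 CPM in KO and 448, 449 and 443 CPM in WT libraries, a fall of 46.7% (-0.91, SE 0.04, edgeR adjusted p = 1.92e-13). U-87 MG KO libraries were at 236, 231 and 230.1 CPM against 321, 337 and 334 CPM in WT, a fall of 29.7% (-0.51, SE 0.04, edgeR adjusted p = 1.75e-10). KO and WT libraries were far apart in both lines, and the difference between the falls was -0.39 (SE 0.06, edgeR adjusted p = 1.21e-06). UHRF1, which brings DNMT1 to hemimethylated DNA, was called in the other line. It was at 67.3, 67.3 and 66.9 CPM in U-87 MG KO and 106, 110.1 and 111 CPM in WT libraries (-0.69, SE 0.05, edgeR adjusted p = 2.10e-11). HCT116 held 119.9, 119 and 128 CPM in KO and 136, 135 and 140.4 CPM in WT (-0.16, SE 0.05), a difference between the lines of 0.54 (SE 0.07, edgeR adjusted p = 5.41e-08). So of this pair DNMT1 fell more in HCT116 and UHRF1 more in U-87 MG. Of the 50-base stretches of UHRF1, 21.1% also occur in transcripts of other genes, with 20.7% in an unnamed gene. The subunits of the chromatin assembly factor, CHAF1A and CHAF1B, were at -0.14 and -0.48 in HCT116 and -0.39 and -0.25 in U-87 MG. CHAF1A did not pass in HCT116 without KO replicate 2 (-0.11, adjusted p = 0.0641, edgeR).

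Among the regulators of S-phase entry, CDC25A and CCNE2 fell more in HCT116 than in U-87 MG. CDC25A, the phosphatase that activates CDK2 (chr3:48157146-48188417), was called in HCT116, at 40.4, 38.8 and 44.1 CPM in KO and 64.00, 64.1 and 66.4 CPM in WT libraries (-0.65, SE 0.06, edgeR adjusted p = 1.75e-08). U-87 MG KO libraries were at 34.4, 32.02 and 32.8 CPM against 40.5, 41.5 and 38.7 CPM in WT (-0.28, SE 0.06; difference -0.36, SE 0.09, edgeR adjusted p = 0.00114). CCNE2, cyclin E2, fell in HCT116 (-0.58, SE 0.07) and was at -0.03 (SE 0.06, adjusted p = 0.685, edgeR) in U-87 MG, a difference of -0.54 (SE 0.10, edgeR adjusted p = 2.28e-05). With DESeq2 (-0.59) or without HCT116 KO replicate 1 (-0.61), KO replicate 2 (-0.63) or WT replicate 2 (-0.61) CCNE2 passed the fold limit. The antisense gene INTS8 covers 37.05% of the exon bases of CCNE2. Within 5 Mb of CCNE2 the tested genes had medians of -0.11 in HCT116 (n = 42) and 0.02 in U-87 MG (n = 41). Their part in the difference was not tested. The fall of CCNE1 in U-87 MG did not pass with DESeq2 (adjusted p = 0.0861), without TMM (adjusted p = 0.0821, edgeR) or without KO replicate 1, KO replicate 2 or WT replicate 2. For CCNE1 (-0.39 and -0.20) and E2F1 (-0.47 and -0.29) the difference between the lines did not pass the test (adjusted p = 0.154 and 0.0918, edgeR).

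In the edgeR interaction 24 of the 44 members passed the adjusted p, 12 with the more positive effect in HCT116 and 12 with the more positive effect in U-87 MG, against 21.4% and 20.5% of 15613 genes. LIG1 and POLE2 were called different, against 16.9% of all genes, both with the more positive effect in HCT116 (9.66% of all genes) and none the other way (7.24%). Across the 44 members the log2 fold changes of the lines did not follow each other (Pearson 0.02, Spearman -0.11), against 0.18 and 0.29 over the 12239 genes tested in both, as a description over genes. The lines share no libraries.

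Other replication genes, from a list of 36 outside the members, also lay mostly below 0, with a median of -0.32 in HCT116 and -0.25 in U-87 MG. In HCT116 28 of 36 fell at the adjusted p and 1 rose, against 28.1% and 29.2% of all genes, and DBF4 (-0.67, SE 0.06), the activator of the kinase CDC7, and MCM8 (-0.62, SE 0.05), an MCM-family helicase, were called lower. POLD4, a small subunit of polymerase delta, was called higher (0.59, SE 0.10). In U-87 MG 22 of 36 fell and 4 rose, against 30.2% and 29.0% of all genes, and WDHD1, a replisome scaffold on chromosome 14, was called lower (-0.71, SE 0.05).

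Of 35 genes of cell cycle control, not all of them particular to the passage from G1 to S, 34 were tested in HCT116 and 29 in U-87 MG. CDKN1A, which encodes the CDK inhibitor p21, was at 633, 655 and 701 CPM in HCT116 KO against 308, 309.8 and 318 CPM in WT libraries (1.09, SE 0.04, edgeR adjusted p = 2.35e-14). U-87 MG KO libraries held 319.8, 328 and 338 CPM and WT libraries 158, 162 and 163 CPM (1.03, SE 0.04, edgeR adjusted p = 1.85e-15). KO and WT libraries of CDKN1A did not overlap in either line. TFDP2, a dimer partner of E2F factors, rose in both lines too (0.89, SE 0.05, and 0.80, SE 0.06), while its relative TFDP1 was called lower in U-87 MG (-1.18, SE 0.04). TFDP1 lies on chromosome 13, whose 249 tested genes had a median of -0.23 there.

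The other called genes of this list were CDKN2B (0.78), which rose in HCT116, and E2F5 (-1.46), E2F8 (-0.91), MYBL2 (-0.84), CCNA2 (-0.74) and CDC25C (-0.61), which fell there. In U-87 MG MYC (-0.77) and LIN9 (-0.62) were called lower. Together with the genes above, 5 of 34 were called lower and 3 higher in HCT116, against 4.07% and 7.82% of all genes. For U-87 MG 3 of 29 were called lower and 2 higher, against 8.15% and 8.06%. At the adjusted p alone 18 fell and 8 rose in HCT116 (28.1% and 29.2% of all genes), and 14 fell and 3 rose in U-87 MG (30.2% and 29.0%). The medians of the list were -0.15 and -0.16. CDKN1B, the inhibitor p27, was at 0.19 in HCT116 and 0.14 in U-87 MG, and RB1, the retinoblastoma gene, at 0.23 and 0.00. CCND1, cyclin D1, was at 0.09 and 0.02, and E2F2 at -0.25 and 0.01. E2F7 was at -0.06 in HCT116 and not tested in U-87 MG, where E2F8 fell by 0.40 on the log2 scale.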

How the data were processed

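RNA was sequenced from HCT116 (single reads of 50 bp) and U-87 MG (paired reads of 50 bp). The submitters' processing notes name STAR 2.5.2, GRCh38, featureCounts 1.6.1 and Cufflinks 2.2.1. The authors deposited, for each library, a table of raw counts by gene symbol and a table of FPKM. Strand setting and treatment of multiply aligned reads: not given in the sources used here. Groups came from the sample titles.

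The counts of the 6 libraries of a line were fitted with edgeR 4.0.16 in R 4.3.3 (TMM factors, filterByExpr, quasi-likelihood test with robust estimation, Benjamini-Hochberg over all genes tested). Genes were called at an adjusted p under 0.05 and more than 1.5-fold change, if their FPKM averaged above 0.5 in the line. The difference between lines was the interaction over 12 libraries, called by the same limits with the FPKM reached in either line. SEs are the log2 fold change over the square root of F. Positions come from RefSeq on GRCh38.p14 (96.6% of symbols placed), and overlaps and shared 50-base stretches from GENCODE. A stretch counted as shared when a transcript under another gene name held it, even if that gene lies at the same place. Alternatives were other scalings, no filter, DESeq2 1.42.0, limma 3.58.1 on log2(FPKM + 1) and log2(FPKM + 0.1) of genes with a mean FPKM above 0.1, omitted libraries and a block for the replicate number. Same-numbered HCT116 libraries deviated together (correlations 0.259, 0.237 and 0.539), as seen in the data and not stated in the labels, and so count as paired by the limit of 0.1. KO 1 with WT 2 (0.254) and KO 2 with WT 1 (0.199) were about as high, so the numbers 1 and 2 are not told apart and number 3 stands apart. The scripts were tested on simulated data. The members and lists were chosen with earlier results of these data known. Any member could be named. Values in every library are given for members called in a line or different between lines, MCM2 to MCM7, CDC45 and the 3 highest members by FPKM in each line. From the related lists, called genes and 7 fixed genes are named.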

Additional observations from a re-analysis of the deposited data

Results flagged for a closer look

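The effect of the KO differed between the lines past 1.5-fold for 4 genes, by the edgeR interaction test. Taking the log2 effect in HCT116 less that in U-87 MG, the difference was 1.21 for MCM5, 1.16 for CDC45, 1.09 for POLE2 and 0.71 for LIG1. MCM5, CDC45 and POLE2 were lower in KO cells of both lines and more so in U-87 MG, where the medians of their chromosomes were -0.97 (chromosome 22) and -0.47 (chromosome 14). LIG1 was higher in HCT116 and lower in U-87 MG, and its chromosome 19 had a median of 0.01 in HCT116 and 0.04 in U-87 MG.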

How the results depend on the processing

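The direction of both medians was kept under every alternative run. For HCT116 the median moved from -0.36 to -0.40 with limma on log2(FPKM + 1) and -0.42 on log2(FPKM + 0.1). For U-87 MG it moved from -0.37 to -0.33 without TMM, to -0.32 and -0.34 with limma at the same pseudocounts, and to -0.40 when each gene's own chromosome median was subtracted, an alternative chosen after seeing the data. Leaving out 1 library at a time gave medians of -0.40 to -0.34 in U-87 MG. With the adjusted p alone, the counts became 40 lower and 1 higher in HCT116, 37 lower and 1 higher in U-87 MG and 24 different between lines, since no fold was then required. With limma on log2(FPKM + 1) the genes called over the whole table in HCT116 were 568 higher and 502 lower, against 1100 and 572. With the replicate number as a block, 6 members in HCT116 and 3 in U-87 MG were called lower and 2 differed between lines, the same genes as without it. At the adjusted p alone the block took the HCT116 count from 40 to 42 (DUT and GINS3 added) and kept 37 in U-87 MG. The U-87 MG numbers did not pair libraries (correlations 0.07, 0.03 and 0.01). Signs turned for values near 0: CDT1 in HCT116 (0.0143 without TMM, -0.0576 to 0.0293 with 1 library left out), and RPA3 (0.0111, -0.160 to 0.0795) and CCNE2 (0.0104, -0.0848 to 0.00536) in U-87 MG. The cause was not tested.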
